A study of Rattus norvegicus with 96 samples.

Results

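The brain-labelled and the adipose-labelled gene tables were compared library by library within animals, as numbered in the labels. Together they hold 24 of the 96 libraries of the series, and 24 of its 48 gene libraries, with 12 libraries in each table and 1 of each per animal. The animals were 12 male Sprague Dawley rats aged 9 weeks. For 2 weeks they had eaten casein (6 rats) or whole egg (6 rats) as protein source, at the same protein content. The diets also differed in fat source, which was corn oil in the casein diet and the egg itself in the other. All rats had been fasted overnight before tissue collection. The brain label stands for prefrontal cortex (PFC) and the adipose label for epididymal visceral fat (VAT). Both diets were pooled and the tables were paired by animal number, which asks how far the transcripts of the tables differ whatever the diet. Libraries were chosen by their labels and not by any measured value. A gene entered the comparison if 12 or more of the 24 libraries held 10 or more of its counts, so that a gene absent from either table had to have 10 or more in each of the 12 libraries of the other. This left 8623 genes. Gene symbols were used for 82 gene IDs, taken from those the study tabulated for an effect of diet or as microRNA targets, and 75 of them entered the comparison. For 14 of the microRNA targets, among them Fabp3, Pcdh17, Kif1b, Pdhb, Mylk and Zfp36l1, the study prints no ID, and the name rests on a match of its printed fold change and p to a single ID of its supplementary table.

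Each of the tissues in the series has a recognizable transcript content. Hepatocytes of the liver turn ammonia into urea, make cholesterol and fatty acids, and express many cytochrome P450 and transferase enzymes that modify steroids and foreign compounds. Cells of the kidney tubule express membrane channels and carriers that recover water, salt, phosphate and organic acids from the filtrate. Cortex holds neurons and glia with proteins of secretory vesicles and cell adhesion, and visceral fat holds adipocytes in a vascular stroma rich in matrix proteins.

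Library totals were 2109815 to 7105361 counts in the brain-labelled and 941980 to 5120978 counts in the adipose-labelled table, and the brain-labelled total was the larger in 11 of 12 animals (exact sign-flip permutation test over 12 animals, two-sided, p = 0.00537, 0.00806 after Benjamini-Hochberg (BH) adjustment over 3 measures). The 10 largest genes held 29.0% to 40.3% (median 37.0%) of the counts in the brain-labelled libraries and 38.6% to 79.7% (median 49.5%) in the adipose-labelled libraries. This share was lower in the brain-labelled library in 12 of 12 animals (p = 0.000488 by the same exact permutation test, the smallest that 4096 sign flips can give, BH 0.00146). A single gene ID without a symbol accounted for much of the difference in range, with 4.26% to 6.65% of brain-labelled and 4.08% to 47.3% of adipose-labelled counts, over 20% in 8 adipose-labelled libraries. Thinned to 941980 counts, brain-labelled libraries had 4840 to 5619 genes (median 5063) with at least 10 counts and adipose-labelled libraries 3837 to 7187 (median 6377). The brain-labelled number was the higher in only 3 of 12 animals (exact permutation p = 0.0215, BH 0.0215). Across the genes tested, the median Spearman correlation was 0.94 between brain-labelled libraries, 0.85 between adipose-labelled libraries and 0.53 between libraries of different tables, given as a description, and the first principal component carried 68.8% of the variance. The brain-labelled library of animal 12 stood apart from its table, with a median correlation of 0.81 to the others where the remaining 11 had 0.91 to 0.96. The adipose-labelled libraries of animals 9 and 4 had the lowest values of their table, 0.79 and 0.82.

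The labelled tissues were checked against marker genes, of which only those with a symbol could be looked up. The symbols come from the study's diet results on these same libraries, and a gene called there has to be expressed in the table of the call. Finding a marker therefore depended on its level, and the marker counts and sums are a description. Normalised read counts, scaled to a common library size (CPM), were placed on a common scale over the 48 gene libraries for this check. The 5 liver markers found of 13 looked up had a summed level of 2933 to 7911 CPM in the brain-labelled table, 22.9 to 270.3 CPM in the adipose-labelled, 64.6 to 785 CPM in the liver-labelled and 10.2 to 30.7 CPM in the kidney-labelled table. The 6 kidney markers found of 13 summed to 830 to 2187 CPM in the adipose-labelled table, 141 to 344 CPM in the brain-labelled, 190 to 1312 CPM in the liver-labelled and 7.22 to 18.0 CPM in the kidney-labelled table. Liver markers were thus highest in the brain-labelled libraries and kidney markers had their highest median sum, 1503 CPM, in the adipose-labelled libraries. Aqp1 made up most of that sum, at a median of 1156 CPM. It also made up most of the liver-labelled one, at 324 CPM beside a median sum of 338 CPM. The 3 brain markers found of 11 summed to 8.15 to 37.7 CPM in the brain-labelled, 59.8 to 180.1 CPM in the adipose-labelled, 5.83 to 1218 CPM (median 13.5) in the liver-labelled and 908 to 2279 CPM in the kidney-labelled table. The liver-labelled maximum came from Ptgds, which reached 1208 CPM there with a median of 6.31 CPM. The 5 markers of adipose tissue and stroma found of 13 summed to 118 to 345 CPM in the adipose-labelled, 324 to 1096 CPM in the brain-labelled, 749 to 2197 CPM in the liver-labelled and 85.0 to 151 CPM in the kidney-labelled table. These measurements go against the labels of both tables, so the tables are called by their labels and no tissue is assigned to them.

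**Figure D1:**
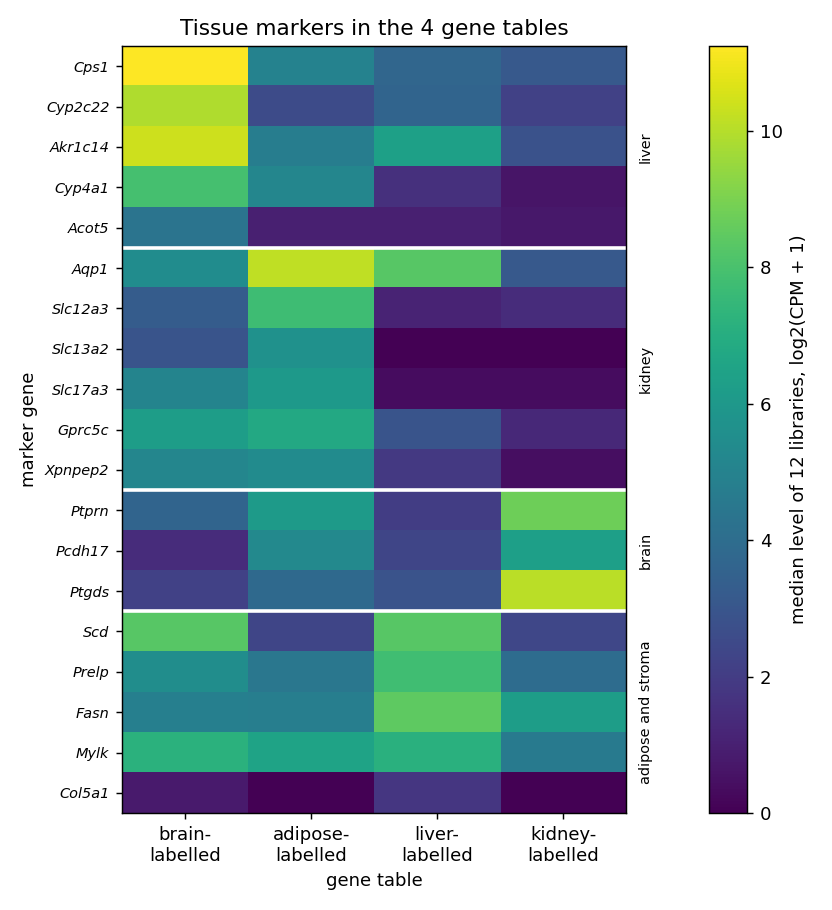
Median level of each marker gene over the 12 libraries of a table, as log2(CPM + 1) on the scale of 48 libraries, with the 4 gene tables as columns and the markers of liver, kidney, brain, and adipose tissue and stroma as rows. Cps1 is at a median of 2428 CPM in the brain-labelled column, Aqp1 at 1156 CPM in the adipose-labelled column and Ptgds at 1080 CPM in the kidney-labelled column.

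The small RNA libraries of the same animals gave another view of the labels. MicroRNAs are small RNAs that repress messages carrying a match to their seed, bases 2 to 8, and miR-9a is known from neurons, miR-122 from hepatocytes, miR-192 from liver, kidney and gut, and miR-204 from epithelia and the nervous system. Their mature RefSeq sequences, with the seed in capitals, show that these markers share no seed.
miR-9a-5p: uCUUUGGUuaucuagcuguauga
miR-122-5p: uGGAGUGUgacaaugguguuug
miR-192-5p: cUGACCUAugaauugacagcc
miR-204-5p: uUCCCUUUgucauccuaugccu
In CPM of the listed microRNA counts, miR-9a-5p was at 96030.4 to 294273 (median 233076) in the brain-labelled and 746 to 18247 (median 1761) in the adipose-labelled small RNA libraries. The hepatocyte microRNA miR-122-5p was at 613 to 6160 (median 2997) in the brain-labelled and 971 to 16716 (median 1788) in the adipose-labelled libraries, beside 226240 to 467597 in the liver-labelled libraries. The level of miR-192-5p was 1220 to 10644 (median 2608) in the brain-labelled and 870.2 to 11895 (median 1449) in the adipose-labelled libraries, where the liver-labelled had a median of 117111 and the kidney-labelled of 39931. The adipose-labelled maxima of miR-9a-5p, miR-122-5p and miR-192-5p all came from animal 12, whose library held the fewest counts, 44390. The next highest adipose-labelled value of miR-9a-5p was 3978. For miR-204-5p the medians were 2032 in the brain-labelled and 376 in the adipose-labelled libraries. Of the other microRNAs looked up, miR-126a-3p had medians of 480 in the brain-labelled, 1763 in the adipose-labelled, 1224 in the liver-labelled and 726 in the kidney-labelled libraries. Values of miR-145-5p were found only in the adipose-labelled (median 871) and kidney-labelled (178) libraries. Those of miR-194-5p were found only in the liver-labelled (1264) and kidney-labelled (504) libraries. No values were available here for miR-124-3p and miR-143-3p. Thus the small RNA libraries labelled brain were rich in a neuronal microRNA and had miR-122-5p far below the liver-labelled small RNA libraries, whereas the gene libraries labelled brain were rich in liver markers. The tables list 91 microRNAs for brain and 64 for adipose, 54 of them in both.

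Of the 8623 genes, 2428 (28.2%) were higher in the brain-labelled and 2410 (27.9%) higher in the adipose-labelled table at an adjusted p under 0.05 (edgeR's quasi-likelihood test with the animal as a block, BH over all genes), so that 56.1% of genes passed in either direction. At least 8-fold differences were called for 503 genes (5.83%) higher in the brain-labelled and 404 genes (4.69%) higher in the adipose-labelled table. The median log2 fold change of all genes, brain- minus adipose-labelled, was 0.0058. With library totals in place of TMM (trimmed mean of M values) scaling, that median was -0.31 and 1545 genes against 2864 passed, 35.0% of calls being higher in the brain-labelled table where TMM gave 50.2%. No library overlapped with the other table for 852 genes (9.88%) with all 12 brain-labelled libraries above and for 698 genes (8.09%) with all 12 adipose-labelled libraries above. The filter keeps a gene absent from one table only if all 12 libraries of the other hold enough counts. It thus favours genes without overlap and the table with larger totals. With a filter of 1 count in any column, 780 and 1243 genes were at least 8-fold higher in the brain- and adipose-labelled table. In bulk samples, fewer cells of a type and less RNA per cell cannot be told apart.

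Of the 75 genes with a symbol, 36 (48%) were higher in the brain-labelled table, 27 (36%) higher in the adipose-labelled table, and 12 did not pass. The groups did not overlap for 16 of them with the brain-labelled libraries above and for 13 with the adipose-labelled libraries above. These genes were named by the study from the same libraries, for their response to diet, so their shares are no sample of all genes. The counts of each list below come from these genes. They are to be read beside 48% and 36% here and 28.2% and 27.9% of all genes tested. A list near these shares shows nothing particular to its members, and no list was tested as a set. At least 8-fold differences were found for 12 genes higher in the brain-labelled and 11 genes higher in the adipose-labelled table. Cyp2c22, Akr1c14, Scd, Acot5, Cyp4a1 and the glutathione transferases have close relatives in the rat genome, and their values are uncertain as far as reads could be shared with a copy.

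**Figure D2:**
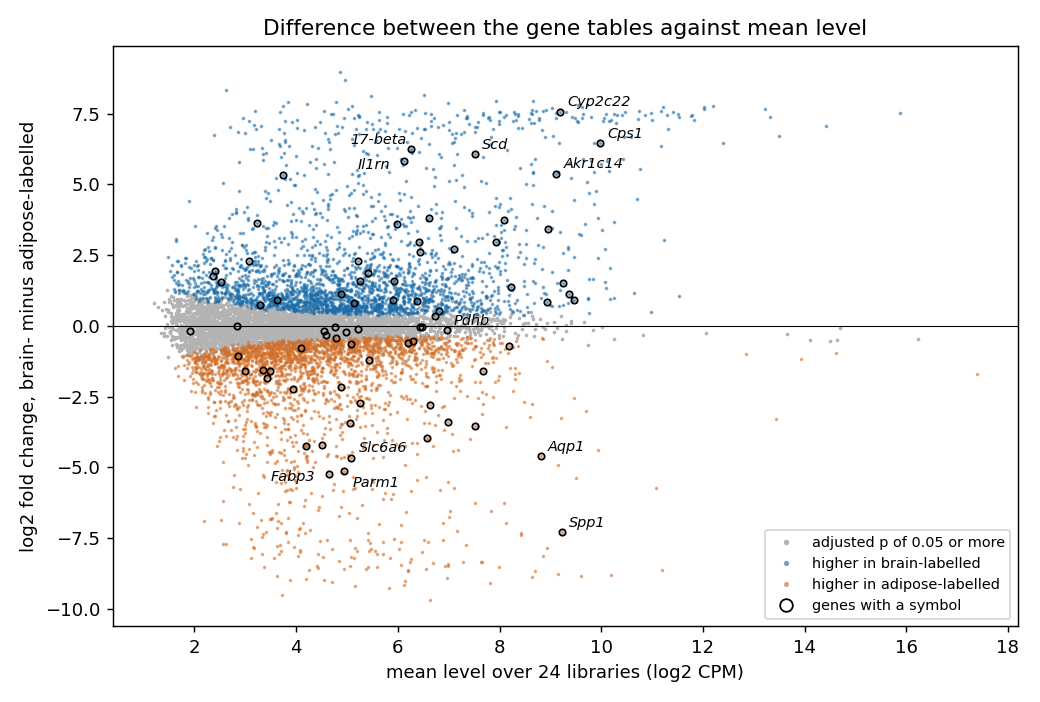
Log2 fold change between the tables, brain- minus adipose-labelled, for each of the 8623 genes (points) against its mean level over the 24 libraries in log2 CPM, with genes that have a symbol circled. Calls lie on both sides of 0, from Cyp2c22 at 7.57 to Spp1 at -7.30 among the circled genes.

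Enzymes that mark the liver were higher in the brain-labelled table. Cps1 (ENSRNOG00000013704), the mitochondrial carbamoyl phosphate synthetase that starts the urea cycle, was at 1436 to 2699 CPM (median 2026) in the brain-labelled and 3.18 to 70.9 CPM (median 25.9) in the adipose-labelled libraries. The groups did not overlap, and the log2 fold change was 6.46 ± 0.42 (SE, 12 pairs, edgeR adjusted p = 3.56e-12). Cps1 was the only member of the urea cycle list with a symbol. Cyp2c22 (ENSRNOG00000021924), a cytochrome P450 of the liver, was at 177 to 2937 CPM (median 751) against 1.59 to 27.2 CPM (median 4.37), a log2 difference of 7.57 ± 0.50 (edgeR adjusted p = 3.54e-11). Its lowest brain-labelled value was that of animal 12, still above every adipose-labelled library. The 250 bases before the start of both genes are shown, since they are the liver markers with the highest mean level in the brain-labelled table. Capitals mark the motifs searched for on both strands, CAAAGTCCA, a sequence bound by the liver-enriched factor HNF4, and TATAAA, the TATA box.
Cps1: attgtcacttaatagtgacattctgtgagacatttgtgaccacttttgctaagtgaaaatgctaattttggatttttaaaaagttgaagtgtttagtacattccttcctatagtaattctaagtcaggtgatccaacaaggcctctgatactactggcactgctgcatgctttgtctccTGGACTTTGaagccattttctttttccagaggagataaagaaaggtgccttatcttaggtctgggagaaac
Cyp2c22: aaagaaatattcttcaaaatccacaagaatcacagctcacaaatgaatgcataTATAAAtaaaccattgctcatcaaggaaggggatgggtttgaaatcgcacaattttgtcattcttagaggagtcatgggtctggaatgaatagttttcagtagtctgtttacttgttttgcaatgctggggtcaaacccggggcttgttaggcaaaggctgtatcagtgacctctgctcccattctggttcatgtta
The windows are from RefSeq, build GRCr8, at chr9:76063613-76063862 on the plus strand and chr1:248980768-248981017 on the minus strand. CAAAGTCCA lay at -71 of Cps1 on the reverse strand and is held by 0.338% of all 33469 promoter windows of this length, and TATAAA lay at -197 of Cyp2c22 and is held by 12.9%. Of the 82 genes with a symbol 72 had a window, 11 of them with TATAAA, and Cps1 alone had CAAAGTCCA.

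The other liver markers had the same direction. Akr1c14, an aldo-keto reductase that reduces steroid hormones, was at 460.5 to 1704 CPM (median 1066) in the brain-labelled and 3.18 to 124 CPM (median 24.6) in the adipose-labelled libraries, a log2 difference of 5.37 ± 0.48 (edgeR adjusted p = 6.13e-09). Cyp4a1, which hydroxylates fatty acids at their far end, was at 62.3 to 541 CPM (median 190.4) and 3.67 to 62.6 CPM (median 30.1), and its groups met in 1 library of each table although the brain-labelled value was higher in 12 of 12 animals. Acot5, an acyl-CoA thioesterase of peroxisomes, was at 7.41 to 40.5 CPM against 0 to 7.64 CPM, a log2 difference of 3.63 ± 0.37. All 5 liver markers tested passed in the brain-labelled direction, with a median log2 fold change of 5.37. They have a symbol only through the study's diet results on these libraries, so the count is a description.

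**Figure D3:**
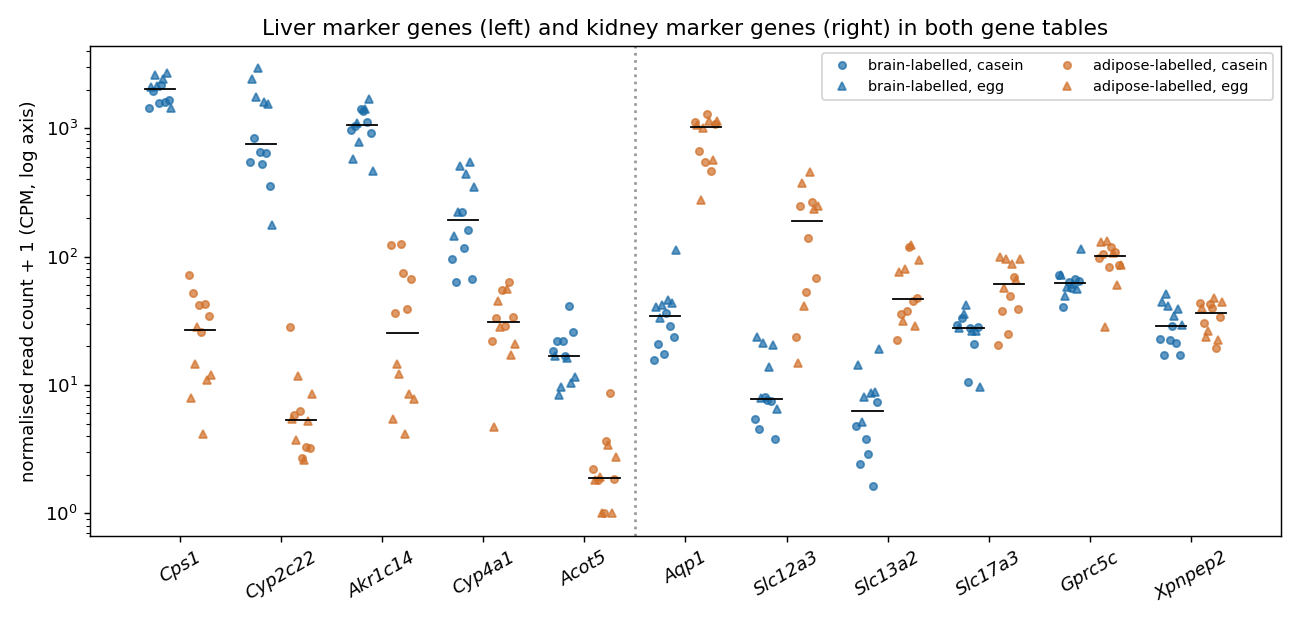
Normalised read count plus 1 (CPM, log axis) of 5 liver markers (left) and 6 kidney markers (right) in each of the 24 libraries, with brain-labelled libraries in blue, adipose-labelled in orange, casein animals as circles, egg animals as triangles and a bar at the median. Cps1 spans 1436 to 2699 CPM in the brain-labelled and 3.18 to 70.9 CPM in the adipose-labelled libraries, and Aqp1 14.8 to 112 and 275 to 1294 CPM.

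Carriers and channels of the kidney tubule went the other way. Aqp1 (ENSRNOG00000011648), the water channel of the proximal tubule and of capillaries, was at 14.8 to 112 CPM (median 33.8) in the brain-labelled and 275 to 1294 CPM (median 1031) in the adipose-labelled libraries. The groups did not overlap and the log2 fold change was -4.61 ± 0.27 (edgeR adjusted p = 8.53e-14). Slc12a3 (ENSRNOG00000057072), the sodium chloride cotransporter of the distal tubule, was at 2.78 to 22.6 CPM (median 6.73) against 13.9 to 458 CPM (median 188), a log2 difference of -3.98 ± 0.56 (edgeR adjusted p = 8.66e-06). It varied widely within the adipose-labelled table, and in animal 2 the adipose-labelled value of 13.9 CPM was below the brain-labelled value of 22.6 CPM. The same windows of the most abundant kidney markers are shown for comparison with the liver markers.
Aqp1: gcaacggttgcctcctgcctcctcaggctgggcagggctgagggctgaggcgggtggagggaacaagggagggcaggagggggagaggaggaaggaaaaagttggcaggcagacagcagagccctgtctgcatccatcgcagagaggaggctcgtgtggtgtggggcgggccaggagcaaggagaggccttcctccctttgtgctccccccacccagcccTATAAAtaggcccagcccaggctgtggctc
Slc12a3: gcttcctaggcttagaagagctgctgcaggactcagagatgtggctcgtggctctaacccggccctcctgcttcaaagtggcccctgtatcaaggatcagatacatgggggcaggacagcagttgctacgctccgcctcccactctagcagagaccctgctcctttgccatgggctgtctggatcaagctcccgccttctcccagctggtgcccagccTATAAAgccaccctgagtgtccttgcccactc
They lie at chr4:85812534-85812783 on the plus strand and chr19:10675051-10675300 on the minus strand of GRCr8, each with TATAAA, at -30 and -32, and neither holds CAAAGTCCA.

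Slc13a2, which carries citrate and succinate into tubule cells, was at 0.634 to 18.2 CPM (median 5.28) in the brain-labelled and 21.5 to 122 CPM (median 45.6) in the adipose-labelled libraries, again without overlap. Slc6a6, the taurine transporter, was at 1.10 to 3.86 CPM and 13.6 to 129 CPM, a log2 difference of -4.67 ± 0.26. Slc17a3, an organic anion and phosphate transporter of the proximal tubule, differed less, with medians of 26.8 and 60.7 CPM and a log2 difference of -1.19 ± 0.24. Slc34a2, a phosphate carrier best known from lung, had medians of 4.60 and 16.1 CPM and a log2 difference of -1.59 ± 0.33. Of the 7 members tested of the tubule transport list, 6 were higher in the adipose-labelled table (36% of all genes with a symbol). None was higher in the brain-labelled table (48% of all genes with a symbol), and the median log2 fold change was -3.43. Xpnpep2, an aminopeptidase of the brush border, was the member that did not pass, with medians of 27.9 and 35.6 CPM and a difference of -0.21 ± 0.21 (edgeR adjusted p = 0.407). Gprc5c, a G protein-coupled receptor found in tubule cells, was at medians of 61.4 and 100.3 CPM, a difference of -0.53 ± 0.18 (edgeR adjusted p = 0.0163) that lost its call without animal 3, 5 or 7, at -0.45, -0.43 and -0.44. With Gprc5c, 5 of the 6 kidney markers were higher in the adipose-labelled table, with a median of -2.31. This count is a description for the same reason as that of the liver markers.

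Detoxifying enzymes divided by member. Of 7 tested, 6 were higher in the brain-labelled and 1 in the adipose-labelled table, with a median log2 fold change of 2.95. Ephx1, the microsomal epoxide hydrolase, was at 397 to 1563 CPM (median 749) in the brain-labelled and 39.2 to 187 CPM (median 80.9) in the adipose-labelled libraries, a log2 difference of 3.42 ± 0.20 (edgeR adjusted p = 1.11e-13). The glutathione transferases Gstm2 and Gstz1, of which the latter also acts in tyrosine breakdown, both differed by 2.95 on the log2 scale (SE 0.17 and 0.18), with no overlap of the groups. Gsta3, an alpha-class transferase, was abundant in both tables, at medians of 807 and 545 CPM, and differed by 0.90 ± 0.29 (edgeR adjusted p = 0.00993, 0.104 with library totals as scaling). Gstp1, the pi-class transferase, was the exception, at 13.8 to 62.5 CPM (median 18.7) in the brain-labelled and 105 to 1245 CPM (median 202) in the adipose-labelled libraries. Its groups did not overlap, and its log2 fold change was -3.55 ± 0.28 (edgeR adjusted p = 5.15e-11). Relatives of an enzyme family thus lay on opposite sides of the comparison.

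Enzymes of amino acid and amine metabolism were higher in the brain-labelled table for 5 of 6 members, with a median of 1.13, and Mthfd2, a mitochondrial enzyme of folate metabolism, did not pass. Csad, which makes the taurine precursor hypotaurine, was at 193 to 797 CPM (median 417) against 91.2 to 318 CPM (median 145), a log2 difference of 1.36 ± 0.25. Ivd, of leucine breakdown, differed by 0.84 ± 0.19 and Inmt, which methylates tryptamine and other amines, by 0.90 ± 0.23, both with overlapping groups. Inmt was not past the threshold without the brain-labelled library of animal 12 and without the block (0.78, edgeR adjusted p = 0.139), nor without the adipose-labelled libraries of animals 4 and 9 (1.03, adjusted p = 0.0832). Hdc, which makes histamine, had 1229 counts over the brain-labelled and 21 over the adipose-labelled libraries, a log2 difference of 5.34 ± 0.44 (edgeR adjusted p = 1.02e-10) that rests on few adipose-labelled counts.

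The cholesterol pathway had 9 members tested here, 7 of them higher in the brain-labelled table, 1 higher in the adipose-labelled table and 1 that did not pass, with a median log2 fold change of 1.87. Nsdhl, which removes a methyl carbon of the sterol ring, was at 119 to 270 CPM (median 175) in the brain-labelled and 7.17 to 19.0 CPM (median 12.9) in the adipose-labelled libraries, a difference of 3.81 ± 0.20 (edgeR adjusted p = 9.71e-15). The emopamil binding protein, a sterol isomerase printed as Ebo by the study, had medians of 157 and 25.2 CPM, also without overlap. The gene the study prints as 17-beta, described as a hydroxysteroid enzyme, was at 64.5 to 300.2 CPM against 0 to 4.05 CPM, a difference of 6.25 ± 0.31. The study groups this gene with oxidation-reduction and not with its cholesterol or sterol terms. Its place in the pathway is therefore an assumption, and the counts and median of the list include it. Fdps, the synthase of farnesyl diphosphate, was at 22.6 to 183 CPM (median 74.9) against 8.52 to 24.3 CPM (median 16.7), a difference of 1.87 ± 0.25 (edgeR adjusted p = 4.4e-07), with overlapping groups and the brain-labelled value higher in 12 of 12 animals. Sqle, which adds oxygen to squalene, was the member on the other side, at 0 to 18.6 CPM (median 4.00) against 4.38 to 36.7 CPM (median 14.5), with a difference of -1.85 ± 0.59 (edgeR adjusted p = 0.0112) that did not pass without the block (-1.05, adjusted p = 0.109). In casein animals alone the Sqle difference did not pass (-0.30 ± 0.34, edgeR adjusted p = 0.497). It was -4.95 ± 0.69 in egg animals, on few brain-labelled counts, so its call rests on that diet. Idi1, the isomerase of isopentenyl diphosphate, did not pass (-0.77 ± 0.44, edgeR adjusted p = 0.153). Insig1, which holds the sterol sensor in the endoplasmic reticulum, did not reach the filter.

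**Figure D4:**
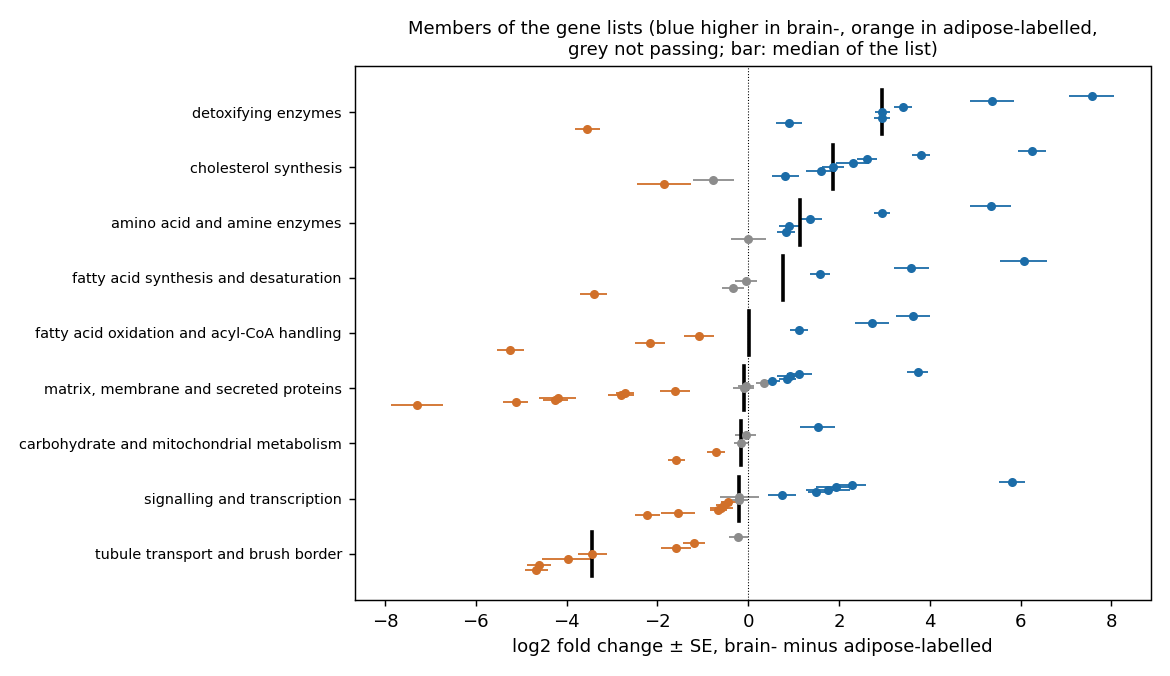
Log2 fold change ± SE, brain- minus adipose-labelled, of each tested member of 9 gene lists (points, blue higher in the brain-labelled, orange higher in the adipose-labelled table, grey not passing), with a bar at the median of the list. The medians run from 2.95 for detoxifying enzymes to -3.43 for tubule transport.

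Fatty acid genes were divided. Scd, the desaturase that makes oleic acid, was at 40.7 to 766 CPM (median 260.0) in the brain-labelled and 0.527 to 14.6 CPM (median 3.78) in the adipose-labelled libraries, a difference of 6.07 ± 0.52 (edgeR adjusted p = 1.27e-08). Fads1, a desaturase of polyunsaturated fatty acids, differed by 3.59 ± 0.39, and Acly, which gives cytosolic acetyl-CoA from citrate, by 1.59 ± 0.22. Acss2, which gives acetyl-CoA from acetate, lay on the other side at 7.71 to 42.6 CPM (median 18.9) against 84.0 to 451 CPM (median 231), a difference of -3.40 ± 0.29 (edgeR adjusted p = 5.92e-10). Fasn, the fatty acid synthase of liver and fat, did not pass, with medians of 22.3 and 25.5 CPM and a difference of -0.04 ± 0.25 that took either sign as single animals were left out. In all, 3 of 6 members were higher in the brain-labelled table, 1 in the adipose-labelled table and 2 did not pass, with a median of 0.77.

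Of 6 genes of fatty acid oxidation and acyl-CoA handling, 3 were higher in the brain-labelled and 3 in the adipose-labelled table, with a median log2 fold change of 0.020. Dbi, the acyl-CoA binding protein, was at 464 to 1763 CPM (median 830.2) against 289 to 505 CPM (median 387), a difference of 1.12 ± 0.19. Fabp3 (ENSRNOG00000012879), the fatty acid binding protein of heart and muscle, was at 0.278 to 4.29 CPM (median 1.13) in the brain-labelled and 32.1 to 67.6 CPM (median 45.9) in the adipose-labelled libraries. Its groups were far apart, with a log2 fold change of -5.24 ± 0.30 (edgeR adjusted p = 4.32e-14). Acsm3, a medium-chain acyl-CoA synthetase, was lower in the brain-labelled library in 12 of 12 animals, by -2.16 ± 0.33.

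The matrix, membrane and secreted proteins lay on both sides, with 5 members higher in the brain-labelled table, 7 higher in the adipose-labelled table and 3 not passing, and a median of -0.10. Spp1 (ENSRNOG00000043451), the secreted phosphoprotein osteopontin, was at 1.72 to 8.26 CPM (median 3.69) in the brain-labelled and 44.2 to 3265 CPM (median 895) in the adipose-labelled libraries. No other gene with a symbol had a larger difference in that direction, at -7.30 ± 0.58 (edgeR adjusted p = 1.31e-09). Parm1, a membrane mucin-like protein, was at 0 to 2.82 CPM against 11.8 to 137 CPM, a difference of -5.12 ± 0.28. Pcdh17, a protocadherin, differed by -4.25 ± 0.27, Snn, the small membrane protein stannin, by -4.20 ± 0.41 and Anxa5, a phospholipid-binding annexin, by -2.81 ± 0.29, all without overlap. Ptprn, a protein of secretory granules in neurons and endocrine cells, was at 3.14 to 22.0 CPM against 24.4 to 117 CPM, and Ptgds, the prostaglandin D synthase of brain and its membranes, at 1.07 to 8.58 CPM against 4.38 to 21.5 CPM. These brain markers were therefore higher in the adipose-labelled than in the brain-labelled table, while their medians in the kidney-labelled table, 437 and 1080 CPM on the scale of 48 libraries, were higher still. Tmem205, a membrane protein, was at 270.1 to 870.2 CPM (median 525) against 14.5 to 72.6 CPM (median 34.1), a difference of 3.73 ± 0.23. Prelp, a proline-rich matrix protein, differed by 1.12 ± 0.27. Of the 4 tested markers of adipose tissue and stroma, Scd and Prelp were higher in the brain-labelled table, and Fasn and Mylk did not pass.

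Among 14 signalling and transcription genes, 6 were higher in each table and 2 did not pass, with a median of -0.19. Il1rn, the antagonist of the interleukin 1 receptor, was at 37.4 to 455 CPM (median 89.1) in the brain-labelled and 0 to 4.86 CPM (median 1.80) in the adipose-labelled libraries, with no overlap and a difference of 5.81 ± 0.28 (edgeR adjusted p = 2.56e-15). Zfp36l1, which binds AU-rich messages and speeds their decay, was at 589 to 1539 CPM against 252 to 378 CPM, a difference of 1.50 ± 0.19. Egr1, an immediate early transcription factor, had medians of 54.6 and 75.0 CPM and a difference of -0.59 ± 0.25 (edgeR adjusted p = 0.0471), past the threshold with all animals but not without animal 1, 2, 3, 5, 6, 7 or 11 (-0.53 to -0.42). Carbohydrate and mitochondrial genes had 1 of 5 members higher in the brain-labelled table, 2 higher in the adipose-labelled table and 2 not passing, with a median of -0.15. The isocitrate dehydrogenase the study prints as NADP was at 61.5 to 280.2 CPM against 203 to 407 CPM (-1.59 ± 0.19), and Entpd5, a nucleotide diphosphatase, differed by -0.70 ± 0.20.

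Some genes differed little in tables that differed in 56.1% of the genes tested. Among genes with a symbol and a mean of at least 50 CPM, the smallest differences were those of Sft2d2, a vesicle transport protein (-0.04 ± 0.18), Tkfc, the triokinase of fructose use (-0.06 ± 0.23), Pdhb, a subunit of pyruvate dehydrogenase (-0.15 ± 0.16), Mylk, the myosin light chain kinase (0.35 ± 0.18) and Kif1b, a motor of organelle transport (0.52 ± 0.18). Pdhb was at 67.3 to 205 CPM (median 119) and 75.2 to 173 CPM (median 127). Kif1b passed the test (edgeR adjusted p = 0.0167) and the other members of this group did not (0.108 to 0.875). The pooled value of Tkfc joins differences of opposite sign, 0.65 in casein and -0.72 in egg animals, so it was not near equal on either diet.

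Genes without a symbol reached larger differences. ENSRNOG00000023116 was at 137 to 242 CPM in the brain-labelled libraries and had 20 counts in all 12 adipose-labelled libraries together, and ENSRNOG00000051912 was at 324 to 819 CPM against 0.796 to 6.08 CPM, a log2 difference of 7.94 ± 0.27. In the other direction, ENSRNOG00000058653 was at 39.3 to 305 CPM in the adipose-labelled libraries with 7 counts in the brain-labelled table, and ENSRNOG00000013768 at 60.0 to 444 CPM with 10 counts. Each table therefore held abundant transcripts that were nearly missing from the other. For the 52 genes whose median was 50 CPM or more in the brain-labelled and at most 1 CPM in the adipose-labelled table, the summed level in single adipose-labelled libraries was 0.328% to 1.59% (median 0.793%) of the level in their own table. For the 53 genes restricted the other way, the level in single brain-labelled libraries was 0.152% to 0.718% (median 0.360%). The genes of these sets were chosen by their levels, so the shares are a description.

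The genes that separated the tables were also placed beside the liver-labelled and kidney-labelled tables. Of the 503 genes at least 8-fold higher in the brain-labelled table, 466 (92.6%) had their highest median of the 4 tables in it. For 25 (4.97%) it was in the liver-labelled and for 12 (2.39%) in the kidney-labelled table. Of the 404 genes at least 8-fold higher in the adipose-labelled table, 313 (77.5%) had their highest median there. For 34 (8.42%) it was in the liver-labelled and for 57 (14.1%) in the kidney-labelled table. Of all 8623 genes, 33.1% had their highest median in the brain-labelled, 18.7% in the adipose-labelled, 21.5% in the liver-labelled and 26.6% in the kidney-labelled table. Both sets were chosen for being high in one of the tables, which favours that table and lowers the shares left for the others. The shares of the sets are therefore a description.

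Whether the difference between the tables depended on diet was tested by an interaction term. It passed for 8 genes (0.0928% of those tested, edgeR adjusted p under 0.05), and 325 genes had an unadjusted p under 0.05. All 8 have a symbol, and the symbols come from the study's own tables of diet effects in these libraries. In casein animals the adipose-labelled level of Spp1 was 1039 to 3265 CPM and in egg animals 44.2 to 752 CPM, while the brain-labelled level stayed at 8.26 CPM or less, and the difference between the tables was -8.73 ± 0.37 and -5.31 ± 0.46 on the log2 scale. Anxa5 had the same pattern, at 173 to 307 CPM in casein and 64.3 to 158 CPM in egg adipose-labelled libraries, and differences of -3.73 ± 0.26 and -1.81 ± 0.29. The adipose-labelled level of Akr1c14 was 35.6 to 124 CPM in casein and 3.18 to 13.6 CPM in egg animals, and the difference went from 4.02 ± 0.32 to 6.99 ± 0.44. In these genes the diets separated within the adipose-labelled table without overlap.

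For the sterol and desaturase genes the diets separated in the brain-labelled table instead. Fads1 was at 86.2 to 384 CPM in casein and 18.9 to 46.5 CPM in egg brain-labelled libraries, and the difference from the adipose-labelled table went from 4.81 ± 0.32 to 2.35 ± 0.35. Msmo1, a sterol demethylase, was at 64.8 to 107 CPM and 15.0 to 27.5 CPM, and its difference was 1.87 ± 0.27 in casein and -0.20 ± 0.28 in egg animals. Idi1 was at 16.98 to 38.8 CPM and 0.343 to 5.52 CPM, with differences of 0.49 ± 0.30 and -2.34 ± 0.51. For Sqle, casein brain-labelled libraries had 6.92 to 18.6 CPM and egg libraries 0 to 1.08 CPM, and its fitted egg difference of -4.95 ± 0.69 rests on 0 to 6 counts per library. Cyp4a1 went the other way, at 62.3 to 220.2 CPM in casein and 145 to 541 CPM in egg brain-labelled libraries, with differences of 1.60 ± 0.24 and 4.00 ± 0.38. On the casein diet alone 3952 genes passed and on the egg diet alone 3327, 2902 of them on both. Tkfc was the only gene that passed on both diets with opposite signs (0.65, edgeR adjusted p = 0.0444, and -0.72, adjusted p = 0.0264), although its interaction did not pass (adjusted p = 0.353).

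**Figure D5:**
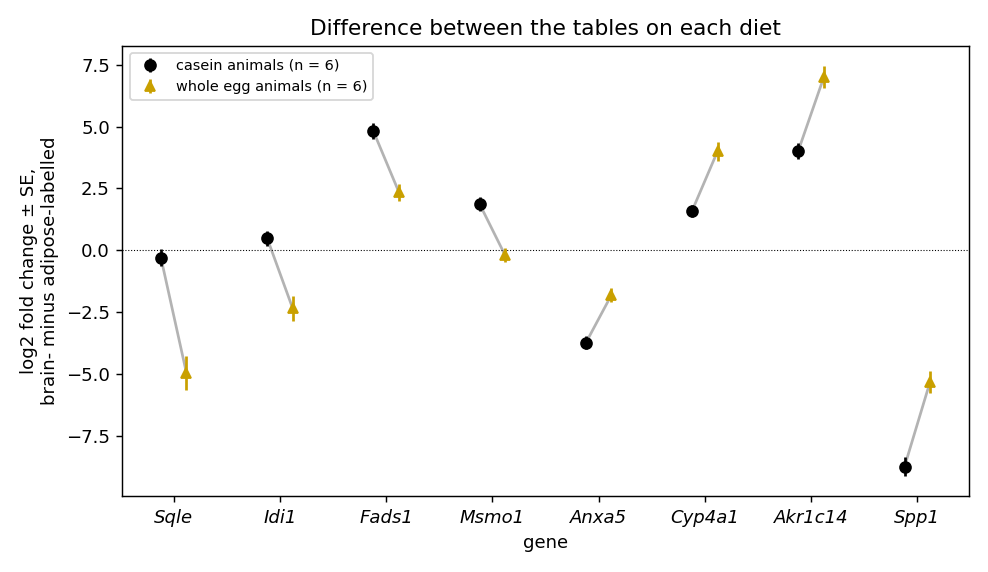
Log2 fold change ± SE, brain- minus adipose-labelled, fitted in the 6 casein animals (circles) and the 6 egg animals (triangles) for the 8 genes whose interaction of table and diet passed. Lines join the diets of a gene, from -0.30 to -4.95 for Sqle and from -8.73 to -5.31 for Spp1.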

How the data were processed

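The authors prepared QuantSeq 3′ mRNA libraries, trimmed the reads, ran STAR against an Ensembl rat assembly and deposited a raw count per gene and library. They likewise deposited counts per microRNA from small RNA libraries. The submitters' notes name FastQC and DESeq with no version. Deposited tables of the authors' own diet comparisons were not used. Samples were matched by tissue, assay and animal number, and the diet was read from the column headings, since the sample labels do not give it. From the 24 columns, genes with 10 or more counts in 12 or more were scaled by TMM and tested with edgeR 4.0.16 (quasi-likelihood, robust, animal as block) in R 4.3.3, with BH adjustment and a threshold of 0.05. QuantSeq gives 1 tag per transcript, so CPM are not divided by length. The interaction with diet used the same fit. Each SE of a log2 fold change was derived from the test, as the size of the change divided by the square root of its F statistic. Single values per library were tested by exact sign flips over 12 animals. DESeq2 1.42.0 and limma 3.58.1 gave alternatives, and Python 3.11.15 with matplotlib 3.10.9 the figures.

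The pairing came from the animal numbers in the labels. Deviations of same-numbered libraries from their group means correlated by -0.12 to 0.25 (median 0.081), over 0.1 in 3 of 12 pairs. The adipose-labelled library that correlated best with a brain-labelled one had the same number in 2 of 12 cases. The pairing therefore rests on the labels. No libraries were near-identical. Data were simulated for the comparison of the tables with 200 of 8623 genes changed, as many up as down, and no animal effect. In them 98.9% of 4-fold and 48% of 2-fold changes were recovered with 1 false call. The real comparison called 56.1% of genes, so the simulation does not probe the scaling and gives no error rate for it. For the interaction, also with 200 genes changed, 57.7% of 4-fold changes were recovered with 2 false calls. The named genes were the 12 largest differences in each direction among those passing, the 5 smallest at a mean of at least 50 CPM, up to 4 of highest level per list, and all markers, with others named after their values were seen. Some genes of the lists and markers are not reported here and were left out of all list counts. The members and lists were chosen with earlier results of these data known. Library totals limit precision at low counts. The p-values of the blocked fits and sign flips measure how the difference between the tables varies over animals. With 1 library per table and animal, this includes variation between libraries. Among genes with a symbol, 7 (Insig1, Col5a1, Ddit4l, Gdnf, Spry4, RGD1560242 and mrpl9) did not pass the filter.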

Additional observations from a re-analysis of the deposited data

Results flagged for a closer look

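The difference between the tables depended on diet for 8 genes, by an interaction term in edgeR with the animal as a block. The egg minus casein change of the log2 fold change was -4.67 ± 0.70 for Sqle (edgeR adjusted p = 0.00649) and 3.37 ± 0.53 for Spp1 (adjusted p = 0.00649), and both passed in 12 of 12 fits that left out an animal. It was 2.92 ± 0.49 for Akr1c14 (adjusted p = 0.0102), which did not pass without animal 10 (adjusted p = 0.056). Fads1, at -2.51 ± 0.45 (adjusted p = 0.0171), did not pass without animal 1, 5, 10 or 11, and Msmo1, at -2.12 ± 0.38 (adjusted p = 0.0171), not without animal 4, 5, 10 or 11, with adjusted p up to 0.10 in both. Cyp4a1, at 2.36 ± 0.44 (adjusted p = 0.0291), passed in 6 of 12 such fits, and not without animal 2, 3, 5, 10, 11 or 12. Anxa5, at 1.89 ± 0.37 (adjusted p = 0.0364), passed in 3 fits, those without animal 2, 8 or 9, and Idi1, at -2.85 ± 0.57 (adjusted p = 0.0440), in 2, those without animal 8 or 9. Without the block the interaction of Spp1 (2.80, adjusted p = 0.376) and of Cyp4a1 (2.09, adjusted p = 0.441) did not pass, nor did it in DESeq2 (adjusted p = 0.18 and 0.0976), whereas the other 6 passed in both. The size kept its sign for each of the 8 genes in every one of these fits.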

How the results depend on the processing

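Leaving out each animal in turn gave 2333 to 2517 genes higher in the brain-labelled and 2165 to 2399 higher in the adipose-labelled table, 498 to 523 and 396 to 425 of them at least 8-fold, and 2 to 10 genes for the interaction with diet, in place of 8. The count higher in the brain-labelled table moved to 1545 with library totals as scaling, and upper-quartile scaling moved the median of all genes to -0.16. With 1 count in any column as the filter, 780 and 1243 genes were at least 8-fold higher in the brain- and adipose-labelled table. With 10 counts in all 24 columns, which leaves 3680 genes, the counts were 1203 and 1064, and 105 and 32 at least 8-fold. Thinning to 941980 counts left 244 genes at least 8-fold higher in the adipose-labelled table, and the egg animals alone 1561 higher there. DESeq2 without a block gave 14 genes for the interaction. The share of counts in the 100 largest genes differed by -1.96 percentage points (exact permutation p = 0.573), where that in the 10 largest differed by -18.3. Without the replicate block, 2375 and 2562 genes passed, 488 and 408 at least 8-fold, and 9 for the interaction, and of the genes named Egr1 (-0.54, edgeR adjusted p = 0.105) and Sqle lost their calls. Chosen after seeing the data, leaving out the brain-labelled library of animal 12 gave 2434 and 2711 genes and leaving out the adipose-labelled libraries of animals 4 and 9 gave 2459 and 2614, with no block.

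Signs turned for differences near 0. Tkfc was at 0.12 without the block, 0.0099 with the filter on all 24 columns, 0.65 in casein animals alone, 0.20 without the brain-labelled library of animal 12, 0.083 without the adipose-labelled libraries of animals 4 and 9, and -0.18 to 0.091 as single animals were left out. Sft2d2 was at 0.015 with the filter of 1 count, 0.029 with that on all 24 columns, 0.27 in egg animals alone and -0.11 to 0.090 as animals were left out. Fasn was at 0.0088 with the filter of 1 count, 0.059 in casein animals alone and -0.16 to 0.13 as animals were left out. Idi1 was at 0.49 in casein animals, Msmo1 at -0.20 and Xpnpep2 at 0.31 in egg animals. Msmo1 also lost its call without animal 3 or 11 (0.76 and 0.70) and with library totals or upper-quartile scaling (0.51 and 0.66), and Kif1b with these scalings and with thinning (0.20, 0.36 and 0.39). The cause was not tested. Over 56 genes named and all alternatives, 1290 fits kept the call, 41 lost it, 8 gained it and 28 turned the sign.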
